A study of Mus musculus with 6 samples.

Results

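The genes described here are 10 members of the machinery that takes a cell from G1 into S phase, namely the D cyclins Ccnd1, Ccnd2 and Ccnd3, cyclin E1 (Ccne1), the kinases Cdk4 and Cdk6, the kinase inhibitors Cdkn1b, Cdkn1c and Cdkn2c, and the retinoblastoma gene Rb1. They were chosen by name, with earlier results of these data known, and are 10 of the 53465 genes of the deposited count table. RNA sequencing had been carried out on 6 mouse liver tumour cell lines, 3 of the genotype Myc_Utx (lines 2A, 2B and 2D) and 3 of the genotype Myc_p53 (lines 1, 2 and 3). The tumours arose after hydrodynamic tail vein injection, which delivers plasmids into hepatocytes, of female C57BL/6 mice that were 8 weeks old at injection. All 6 lines carry Myc, expressed from the EF1a promoter on a transposon, and all had received a plasmid for transient expression of Cas9 with a guide RNA, against Kdm6a (Utx, a histone H3K27 demethylase) in Myc_Utx and against the p53 gene in Myc_p53. The control lines therefore carry a knockout too, and no line without either knockout was analysed here. Each line came from a tumour of a different mouse and was passaged until no other cell types were seen in the culture, so each counts as 1 biological replicate and each group has n = 3.

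In G1, D cyclins bind Cdk4 or Cdk6, and the active kinase phosphorylates Rb, the protein that holds E2F transcription factors in check on genes of DNA replication. Cyclin E then binds Cdk2 and completes this phosphorylation, and cyclin E1 is itself an E2F target gene. INK4 proteins, of which p18INK4c is encoded by Cdkn2c, block Cdk4 and Cdk6, whereas p27 (Cdkn1b) and p57 (Cdkn1c) bind cyclin and kinase complexes and are best known as inhibitors of cyclin E with Cdk2. Adult hepatocytes rest outside the cell cycle, and cyclin D1 is the D cyclin that is induced when the liver regenerates.

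Counted reads ranged from 4656103 to 6937497 per line. Of all genes, 11510 passed the filter on low counts and were tested by the quasi-likelihood F test in edgeR, adjusted by Benjamini-Hochberg over all of them. A gene is said to be called at an adjusted p under 0.05, and log2 fold changes are those of Myc_Utx over Myc_p53 lines. Levels of a gene are given as CPM, the counts of a gene scaled to the total of its library with TMM factors, in the order 2A, 2B and 2D, then 1, 2 and 3. The targeted genes checked the labels: Trp53 was at 294, 295 and 276 CPM in Myc_Utx lines and at 32.4, 34.5 and 35.8 CPM in Myc_p53 lines, with no overlap (log2 fold change 3.07 ± 0.11 SE, adjusted p = 0.000488 by edgeR). Kdm6a was at 39.7, 45.7 and 49.0 CPM in Myc_Utx lines and at 69.5, 64.5 and 42.5 CPM in Myc_p53 lines. These ranges overlapped and the difference was not called (−0.39 ± 0.22, adjusted p = 0.243 by edgeR). A guide RNA alters the coding sequence and need not lower the mRNA, so the Kdm6a level alone does not check the knockout. Of 7 hepatocyte markers, the secreted protein genes Alb, Apoa1, Ttr and Afp were at 4.87 CPM or less in all 6 lines. The others split the lines: Hnf4a was at 0.598, 0.562 and 0 CPM in Myc_Utx lines and at 10.1, 1.48 and 6.70 CPM in Myc_p53 lines, and the keratins Krt8 and Krt18, given further on, were high in Myc_p53 lines 1 and 3. The summed level of the 7 markers was 26.7, 93.4 and 2.67 CPM in Myc_Utx lines and 1206, 39.3 and 773 CPM in Myc_p53 lines.

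Since all 6 lines express Myc, which binds DNA with Max at the E-box CACGTG, the promoters of the members were searched for this motif, and for the E2F motifs TTTGGCGC, TTTCGCGC, TTTCCCGC and TTTGCCGC and the GC box GGGCGG, on both strands. RefSeq promoters (GRCm38.p6, 250 bases before to 50 bases after the start) were matched for 6 of the 10 members: Ccnd3, Ccne1, Cdk4, Cdk6, Cdkn1b and Cdkn2c. The 3 stretches below are shown because Cdk4 and Cdk6 are the members with an E-box before the start, and because Ccne1 had the largest called difference between the groups. Each stretch lies before the start, stops where the window meets an annotated exon of the gene (GENCODE M21), and reads 5′ to 3′ on the strand of the gene. Capitals mark E-boxes in Cdk4 and Cdk6 and GC boxes, on either strand, in Ccne1.
Cdk4, chr10:127063285-127063533, plus strand: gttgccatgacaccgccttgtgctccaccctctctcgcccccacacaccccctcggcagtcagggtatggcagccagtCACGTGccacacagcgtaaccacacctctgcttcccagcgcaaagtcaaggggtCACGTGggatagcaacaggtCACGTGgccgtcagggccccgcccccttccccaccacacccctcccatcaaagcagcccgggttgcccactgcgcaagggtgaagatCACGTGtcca
Cdk6, chr5:3343643-3343731, plus strand: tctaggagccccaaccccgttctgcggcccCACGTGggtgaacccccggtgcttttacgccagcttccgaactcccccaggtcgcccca
Ccne1, chr7:38107535-38107740, minus strand: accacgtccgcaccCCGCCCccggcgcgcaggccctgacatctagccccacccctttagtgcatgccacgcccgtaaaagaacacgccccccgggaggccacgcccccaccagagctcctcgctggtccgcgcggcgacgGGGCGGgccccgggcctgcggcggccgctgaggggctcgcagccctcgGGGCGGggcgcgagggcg

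The Cdk4 promoter held 4 E-boxes, whose first letters lay 172, 118, 98 and 11 bases before the start. Of 32851 promoters of this length, 7.15% held at least 1 E-box and 8 promoters, or 0.0244%, held at least 4. Cdk6 held 1 E-box, 220 bases before the start, and Cdkn2c held 1, which lay 34 bases after the start of the more downstream of its 2 listed promoters. Ccne1 held no E-box and 4 GC boxes in the whole 300-base window, a number that 5.49% of promoters reached. None of the 6 members held any of the E2F motifs, which occurred in 2.26% of promoters. These matches describe the letters of the reference genome only. Binding was not measured here.

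Across the members, 3 were called higher in Myc_Utx lines and none was called lower. The called genes were Ccne1, Cdk4 and Cdkn2c, out of 9 members tested, since Cdkn1c did not pass the filter on low counts. Over all genes tested, 6.99% were called higher, 7.69% lower and 14.7% in either direction. For the members called lower, the count of 0 by edgeR stood beside 1 member lower at an unadjusted p under 0.05 and 1 called by DESeq2, which was Cdk6 in each case. DESeq2 called 4 of 10 members in either direction, against 21.4% of the 13382 genes to which it gave an adjusted p. The 3 called members and Cdk6 were also those of the 9 whose groups did not overlap, 3 higher and 1 lower. Such separation was common in these data, with 21.1% of genes higher and 20.9% lower without overlap, 42% in all. Without any single Myc_Utx line, no member was called by edgeR. At an unadjusted p under 0.05, 3 were higher in each case, and 2, 1 and 1 lower without 2A, 2B and 2D. This loss was not particular to the members. Calls in the whole table fell to 3 higher and 1 lower without 2A, 43 and 38 without 2B, and 43 and 28 without 2D. Without Myc_p53 lines 1, 2 and 3, the members called higher numbered 2, 2 and 1. The genes called higher in the whole table then numbered 481, 836 and 63.

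**Figure D1:**
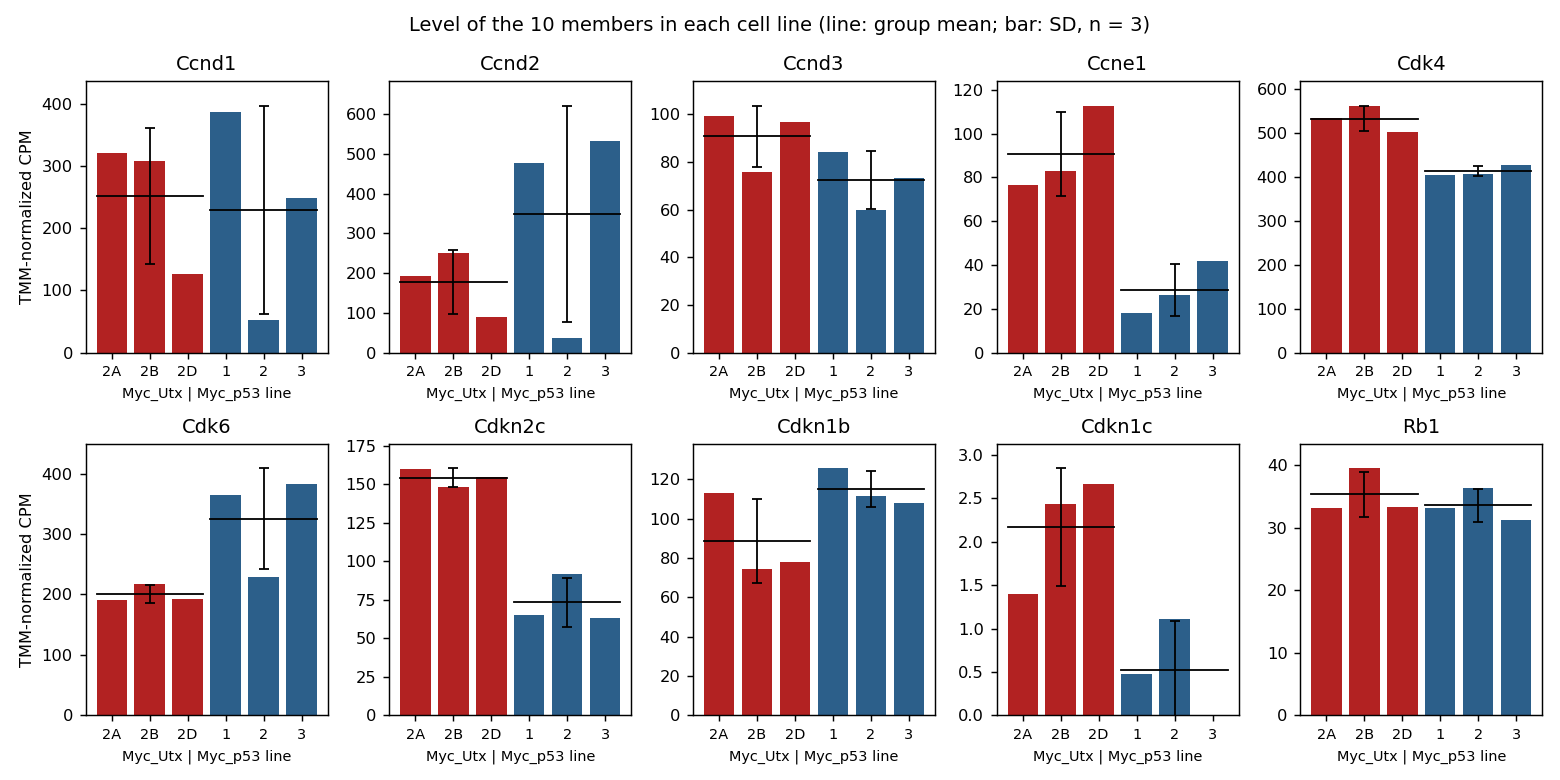
Level of each of the 10 members (TMM-normalized CPM) in the 3 Myc_Utx and 3 Myc_p53 lines, 1 bar a line, with the group mean as a line and the SD (n = 3) as an error bar. Ccne1, Cdk4, Cdkn2c and the barely detected Cdkn1c stand higher in all 3 Myc_Utx lines, and Cdk6 stands lower in them. Among the 9 members tested, Ccnd1 and Ccnd2 vary most between lines of the same group.

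Cyclins D1 and D2 differed more between lines of the same group than between the groups. Ccnd1 (ENSMUSG00000070348, GRCm38 chr7:144929931-144939925, minus strand) was at 319.9, 308 and 126 CPM in Myc_Utx lines and at 386, 53.2 and 249 CPM in Myc_p53 lines. Line 2 of Myc_p53 was the lowest of all and line 1 the highest, 7.25-fold apart, and every Myc_Utx line lay between them. The group means were 251 ± 109 and 229 ± 167 CPM (SD, n = 3), and the difference was not called (log2 fold change 0.13 ± 0.69 SE, adjusted p = 0.907 by edgeR). Its sign was not stable, since it ranged from −0.33 to 0.73 when single lines were left out and fell below 0 without 2A, without 2B or without Myc_p53 line 2. Ccnd1 overlaps LTO1 on the opposite strand, which had 45 to 77 counts a line against 287 to 2441 for Ccnd1.

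Ccnd2 (ENSMUSG00000000184, chr6:127125162-127152193, minus strand), the cyclin D2 gene, was at 194, 250.5 and 90.2 CPM in Myc_Utx lines and at 478, 35.8 and 533 CPM in Myc_p53 lines. The Myc_p53 lines spanned 14.9-fold and enclosed all Myc_Utx lines, which spanned 2.78-fold. The difference was not called (178 ± 81.3 against 349 ± 272 CPM, log2 fold change −0.97 ± 0.88 SE, adjusted p = 0.471 by edgeR). Without Myc_p53 line 2 it was −1.50, with an adjusted p of 0.0607 by edgeR, still not a call. The SD of log2 CPM within groups was 1.19 for Ccnd1 and 1.65 for Ccnd2. Among the 8078 genes whose mean count reached 100, this spread had a median of 0.22 and a 90th percentile of 0.631, which put Ccnd1 at the 96.3 percentile of spread and Ccnd2 at the 98.4 percentile.

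Ccnd3 (ENSMUSG00000034165, chr17:47505051-47599691, plus strand), the cyclin D3 gene, was much steadier. It was at 99.5, 76.0 and 96.9 CPM in Myc_Utx lines and at 84.2, 60.1 and 73.3 CPM in Myc_p53 lines. The ranges overlapped through line 2B and line 1 of Myc_p53. The difference was not called (log2 fold change 0.32 ± 0.18 SE, adjusted p = 0.240 by edgeR), and the spread of Ccnd3 within groups lay at the 52.9 percentile. Ccnd3 overlaps Bysl on the opposite strand, which had 269 to 565 counts a line against 324 to 533 for Ccnd3, and whether reads were counted by strand is not given in the sources used here.

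The same lines were low in Ccnd1 and Ccnd2. Within Myc_Utx, line 2D was lowest in both genes, and within Myc_p53, line 2 was lowest in both. These lines were also lowest of their group in the epithelial keratins Krt8, at 12.2, 37.4 and 0 CPM in Myc_Utx and 717, 15.4 and 446 CPM in Myc_p53, and Krt18, at 9.57, 47.9 and 0 CPM and 472, 20.02 and 315 CPM. The biliary keratin Krt19 did not follow in Myc_Utx, at 46.7, 4.68 and 28.7 CPM, but was lowest in line 2 of Myc_p53, at 330.0, 60.2 and 352 CPM. Line 2 of Myc_p53 was lowest of its group in all 4 biliary markers and in 8 of 10 macrophage markers. Line 2D was lowest of its group in 2 of 4 biliary and 1 of 10 macrophage markers, and highest in 1 of each list. Fibroblast and stellate markers gave no common pattern. Col3a1, a collagen gene, was highest of its group in line 2D and in line 2 of Myc_p53, at 1731, 2301 and 2558 CPM in Myc_Utx and 10.3, 2721 and 73.9 CPM in Myc_p53. Of the 8 markers of this list, however, line 2D was highest of its group in 1 and lowest in 4, among them Col1a1 (35.3, 34.5 and 4.01 CPM), and line 2 of Myc_p53 was highest in 4 and lowest in 1. Krt19 and the collagens were named after their values were seen. Over the whole list, of which none of the 6 tested was called (0 at an unadjusted p under 0.05, 1 lower by DESeq2), the summed level, mostly that of Col3a1 in Myc_Utx lines, was 1953 to 2693 CPM in Myc_Utx lines and 41.4 to 3170 CPM in Myc_p53 lines. The part of these markers in the D cyclin levels was not tested, and in bulk RNA fewer cells of a type and less RNA per cell cannot be told apart.

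**Figure D2:**
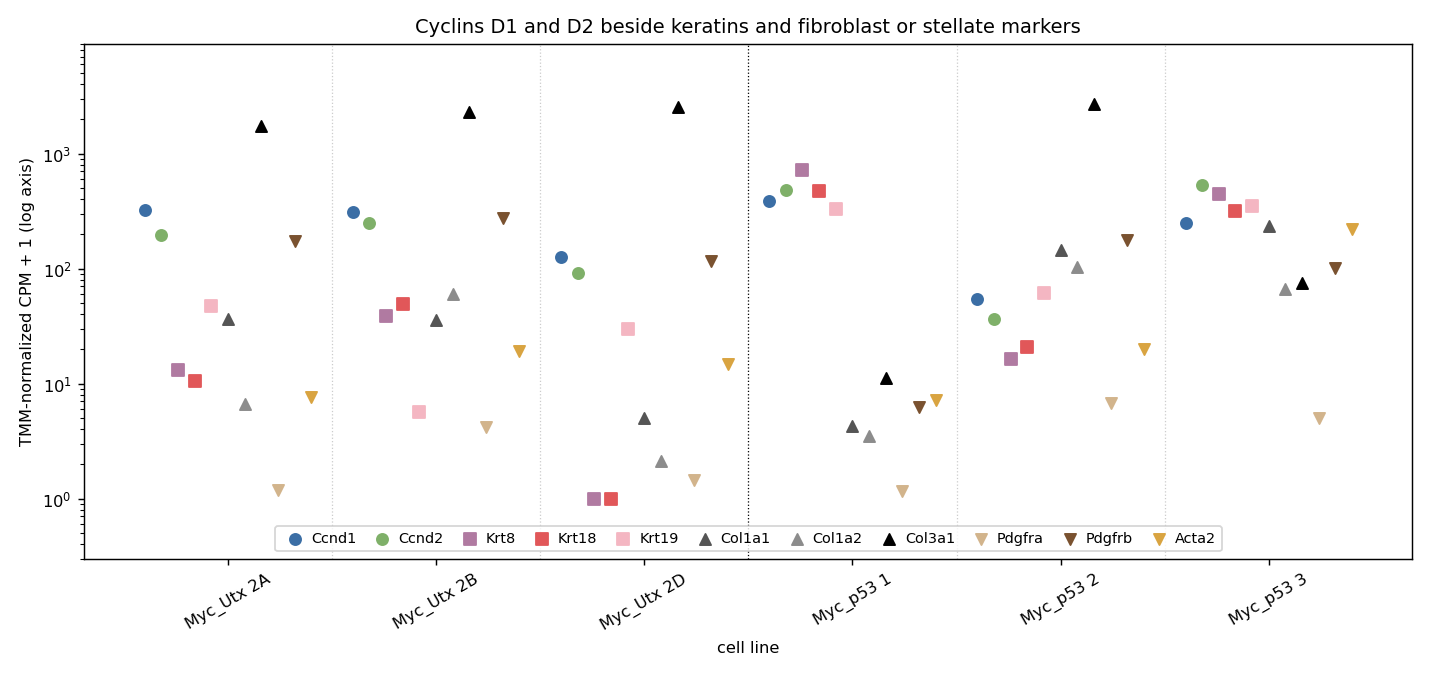
Levels (TMM-normalized CPM plus 1, on a log axis) of Ccnd1 and Ccnd2 (circles), the tested keratins (squares) and the 6 tested fibroblast and stellate markers (triangles) in each of the 6 lines. Lines 2D of Myc_Utx and 2 of Myc_p53 have the lowest Ccnd1, Ccnd2, Krt8 and Krt18 points of their group and the highest Col3a1 point, while Krt19 is lowest in 2B and Col1a1, Col1a2 and Pdgfrb are lowest of Myc_Utx in 2D.

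Levels of different genes can be compared only per length, so the D cyclins were set side by side as CPM per kilobase of the transcript length given in the table, as a description without a test. On this scale Ccnd1 made up 68.03, 65.0 and 56.5% of the summed D cyclin level in Myc_Utx lines and 57.6, 51.5 and 44.9% in Myc_p53 lines. Ccnd2 made up 20.6, 26.4 and 20.2% in Myc_Utx lines and 35.7, 17.3 and 48.0% in Myc_p53 lines. Ccnd3 made up the rest, 11.4, 8.60 and 23.3% in Myc_Utx lines and 6.75, 31.2 and 7.09% in Myc_p53 lines. Cyclin D1 was thus the leading D cyclin transcript in 5 of 6 lines, and Ccnd2 led in Myc_p53 line 3. The order depends on the length used, because the table counts every exon of a gene, which for Ccnd3 gives 8775 bases against 2113 bases for its principal transcript. With principal transcript lengths, Ccnd3 led in the lines with the lowest D cyclin sums, with 48.9% in 2D and 58.8% in Myc_p53 line 2, while Ccnd1 led in 2A, 2B and Myc_p53 line 1 and Ccnd2 in Myc_p53 line 3. The summed level on the table length was 99.9, 100.7 and 47.4 CPM per kilobase in Myc_Utx lines and 142, 21.9 and 118 in Myc_p53 lines, so the groups overlapped.

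**Figure D3:**
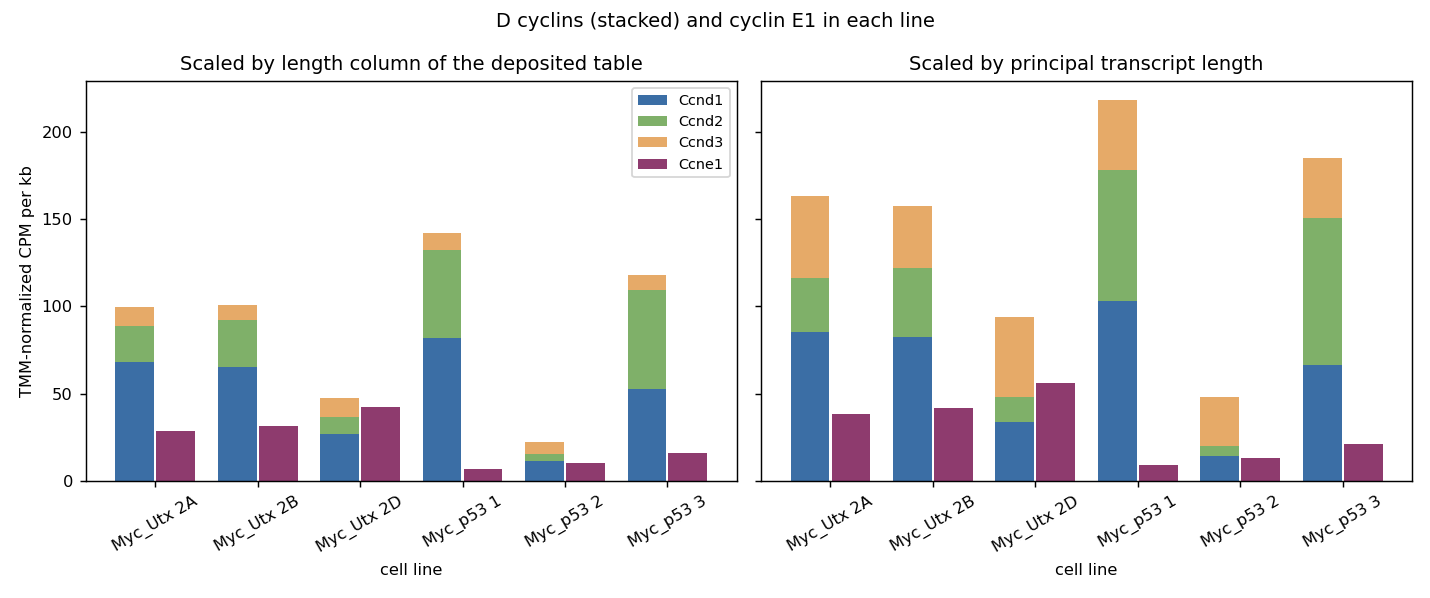
Stacked levels of Ccnd1, Ccnd2 and Ccnd3, with Ccne1 beside them, in each line (TMM-normalized CPM per kilobase), scaled by the length in the table in the left panel and by the principal transcript in the right panel. The stack is lowest in line 2D of Myc_Utx and line 2 of Myc_p53 on both scales, and the Ccnd3 share grows from the left to the right panel.

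Cyclin E1 showed the largest called difference among the members. Ccne1 (ENSMUSG00000002068, chr7:38097984-38107534, minus strand; its promoter stretch is printed above) was at 76.4, 82.9 and 113 CPM in Myc_Utx lines and at 18.3, 26.3 and 41.6 CPM in Myc_p53 lines. Every Myc_Utx line was above every Myc_p53 line. The level was 3.15-fold higher (90.7 ± 19.3 against 28.8 ± 11.8 CPM, SD, n = 3), with a log2 fold change of 1.65 ± 0.33 SE and an adjusted p of 0.0276 by edgeR. The exact permutation test of the 3 lines against 3 gave p = 0.1, two-sided, which is the smallest this design allows. When single lines were left out, the log2 fold change stayed between 1.40 and 2.02, and the call was lost without 2A, 2B or 2D (adjusted p = 0.0732, 0.0782 and 0.0948 by edgeR).

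Cyclin E1 and the D cyclins did not follow the same order of lines. Line 2D had the lowest D cyclin sum of Myc_Utx and the highest Ccne1 level of all. The summed D cyclin level per kilobase was 3.48, 3.23 and 1.12 times that of Ccne1 in Myc_Utx lines and 20.7, 2.22 and 7.53 times in Myc_p53 lines, with overlap through Myc_p53 line 2. These ratios are a description, with no test.

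Cdk4 and Cdk6, the kinase partners of the D cyclins, had differences of opposite sign, of which that of Cdk4 was called. Cdk4 (ENSMUSG00000006728, chr10:127063534-127067920, plus strand; its promoter with 4 E-boxes is printed above) was at 535, 562 and 503 CPM in Myc_Utx lines and at 405, 408 and 428 CPM in Myc_p53 lines. The groups did not overlap and the lines of a group were close together, with a within-group SD of log2 CPM of 0.0637, at the 1.96 percentile of spread. The level was 1.29-fold higher in Myc_Utx lines (533 ± 29.3 against 414 ± 12.3 CPM, log2 fold change 0.37 ± 0.09 SE), with an adjusted p of 0.0496 by edgeR, just inside the threshold. This call was lost under 4 of the 6 other settings that used all lines, with adjusted p from 0.0550 to 0.0948 by edgeR, and without any single line (adjusted p = 0.0678 to 0.143 by edgeR), whereas DESeq2 gave 0.00656 and offsets for transcript length 0.0379. The log2 fold change itself stayed between 0.30 and 0.43 in all of them. Cdk4 overlaps Tspan31 on the opposite strand, which had 232 to 355 counts a line against 2201 to 3000 for Cdk4.

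Cdk6 (ENSMUSG00000040274, chr5:3341485-3531008, plus strand) was at 191, 217 and 192 CPM in Myc_Utx lines and at 364, 229.7 and 382 CPM in Myc_p53 lines. All Myc_Utx lines were below all Myc_p53 lines, although Myc_p53 line 2 lay close to line 2B. The mean was 200.0 ± 14.9 against 325 ± 83.3 CPM, and the difference was not called by edgeR (log2 fold change −0.70 ± 0.20 SE, adjusted p = 0.0643). It was called by DESeq2 (−0.69, adjusted p = 0.0186) and by edgeR without Myc_p53 line 2 (−0.90, adjusted p = 0.0149). With offsets for transcript length it was −0.33, with an adjusted p of 0.265 by edgeR, and Cdk6 has the longest transcript of the 10 members, 13989 bases in the table. As a ratio per kilobase, with no test, Cdk4 was 12.1, 11.1 and 11.3 times Cdk6 in Myc_Utx lines and 4.79, 7.65 and 4.82 times in Myc_p53 lines, so the ratio was higher in every Myc_Utx line.

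Among the inhibitors, Cdkn2c was called higher in Myc_Utx lines. Cdkn2c (ENSMUSG00000028551, chr4:109660876-109667189, minus strand), which encodes the INK4 protein p18, was at 159.9, 148 and 155 CPM in Myc_Utx lines and at 64.9, 91.9 and 63.4 CPM in Myc_p53 lines. The groups were well apart, and the Myc_Utx lines lay close to each other. The level was 2.10-fold higher in Myc_Utx lines (154 ± 5.94 against 73.4 ± 16.0 CPM, log2 fold change 1.07 ± 0.17 SE, adjusted p = 0.0185 by edgeR). Leaving out single lines kept the log2 fold change between 0.97 and 1.27, and the call was lost without 2A, 2B, 2D or Myc_p53 line 3 (adjusted p = 0.0695, 0.0661, 0.0717 and 0.0596 by edgeR). Per kilobase, Cdkn2c stood at 0.334, 0.293 and 0.342 of the summed Cdk4 and Cdk6 level in Myc_Utx lines and at 0.160, 0.241 and 0.149 in Myc_p53 lines, again higher in every Myc_Utx line and with no test.

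Cdkn1b (ENSMUSG00000003031, chr6:134920401-134925513, plus strand), the p27 gene, was at 113, 74.3 and 78.2 CPM in Myc_Utx lines and at 125, 112 and 108 CPM in Myc_p53 lines. Line 2A lay within the Myc_p53 range and the other Myc_Utx lines lay below it. The difference was not called (88.5 ± 21.2 against 115 ± 9.20 CPM, log2 fold change −0.38 ± 0.19 SE, adjusted p = 0.199 by edgeR). Cdkn1c (ENSMUSG00000037664, chr7:143458339-143461050, minus strand), the imprinted p57 gene, was close to the detection limit. It had 7, 13 and 12 counts in Myc_Utx lines and 3, 6 and 0 counts in Myc_p53 lines, or 1.40, 2.43 and 2.67 CPM against 0.474, 1.11 and 0 CPM. The Myc_Utx lines were the higher ones, but the gene was left untested by the filter, and in the fit without that filter the difference was not called (log2 fold change 2.08, adjusted p = 0.223 by edgeR).

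Rb1 (ENSMUSG00000022105, chr14:73183673-73325822, minus strand), the gene of the protein that these kinases phosphorylate, was at 33.1, 39.5 and 33.4 CPM in Myc_Utx lines and at 33.2, 36.3 and 31.2 CPM in Myc_p53 lines. The groups overlapped almost fully. The mean was 35.3 ± 3.61 against 33.6 ± 2.57 CPM, and the difference was not called (log2 fold change 0.07 ± 0.15 SE, adjusted p = 0.752 by edgeR). Rb1 overlaps Rcbtb2 and Lpar6 on the opposite strand, with 87 to 347 and 36 to 164 counts a line against 150 to 219 for Rb1, so reads of these genes could add to the Rb1 value if strand was not used in counting.

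**Figure D4:**
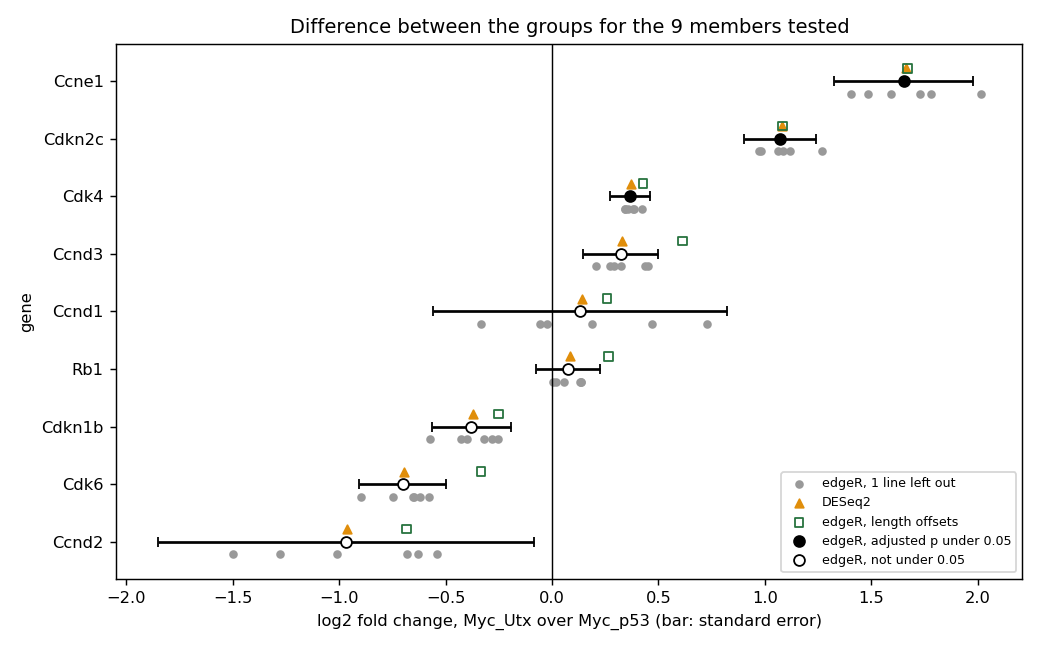
Log2 fold change of the 9 members tested, Myc_Utx over Myc_p53, with the standard error as a bar. Filled points were called by edgeR (Ccne1, Cdk4 and Cdkn2c), and open points were not, among them Ccnd1 and Ccnd2 with standard errors of 0.69 and 0.88.

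Per kilobase of the length in the table, Cdk4 was the most abundant member in both groups, at 164 ± 9.01 in Myc_Utx lines and 127 ± 3.77 CPM per kilobase in Myc_p53 lines (SD, n = 3), well above the next gene. In Myc_Utx lines Cdkn2c (57.5 ± 2.21) and Ccnd1 (53.4 ± 23.1) followed and did not differ beyond their spread. Ccne1 (34.1 ± 7.27) came next, within the spread of Ccnd1, and in line 2D it was above Ccnd1, at 42.3 against 26.8. Cdkn1b (19.4 ± 4.67) and Ccnd2 (18.9 ± 8.64) came next, within each other's spread. Cdk6 (14.3 ± 1.07) followed, within the spread of Ccnd2 but below Cdkn1b in every Myc_Utx line. Ccnd3 (10.3 ± 1.47), Rb1 (5.88 ± 0.601) and Cdkn1c (1.06) closed the order. In Myc_p53 lines Ccnd1 (48.7 ± 35.5), Ccnd2 (37.1 ± 29.0), Cdkn2c (27.3 ± 5.97), Cdkn1b (25.3 ± 2.02) and Cdk6 (23.2 ± 5.95) followed Cdk4, and no neighbours in this stretch differed beyond their spread. Ccne1 (10.8 ± 4.45) and Ccnd3 (8.26 ± 1.38) came after them, above Rb1 (5.58 ± 0.428) and Cdkn1c (0.259). Ccne1 thus stood at rank 4 of 10 in Myc_Utx lines and rank 7 of 10 in Myc_p53 lines. With principal transcript lengths Ccnd3 moved up, to 43.0 in Myc_Utx lines and 34.3 in Myc_p53 lines, and Ccne1 stood at ranks 4 and 8.

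Other genes of the pathway were counted in lists chosen by role, also with earlier results of these data known. Of 15 partners of the members, such as Cdk2, cyclin E2, cyclin A2, the kinase that activates the CDKs and the ubiquitin ligases of the cyclins, none was called by edgeR in either direction (0 higher and 1 lower at an unadjusted p under 0.05, 0 by DESeq2). In either direction, edgeR called 14.7% of all genes tested, and DESeq2 called 21.4% of those to which it gave an adjusted p. Their median log2 fold change was 0.18, against −0.01 over all genes tested and 0.13 over the 9 members.

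The other 4 CDK inhibitors held the largest differences of the pathway, in opposite directions. Cdkn1a, the p21 gene and a textbook target of p53, was at 301, 300.3 and 243 CPM in Myc_Utx lines and at 12.8, 5.38 and 26.4 CPM in Myc_p53 lines, which lack p53 by design (log2 fold change 4.23 ± 0.54 SE, adjusted p = 0.0156 by edgeR). Cdkn2a, whose locus encodes p16INK4a and p19ARF, was at 77.4, 98.9 and 48.1 CPM in Myc_Utx lines and at 334, 386 and 358 CPM in Myc_p53 lines (−2.26 ± 0.26, adjusted p = 0.0137 by edgeR). The log2 fold change of Cdkn1a was 4.93 without Myc_p53 line 3 and 3.84 without Myc_p53 line 2. By edgeR, Cdkn1a was not called without 2A, 2B or 2D (adjusted p = 0.0614, 0.0568 and 0.0592), nor Cdkn2a without 2A or Myc_p53 line 3 (adjusted p = 0.0617 and 0.05001), with directions kept. Gene counts do not separate its INK4a and ARF transcripts. Cdkn2b and Cdkn2d were not called, so of the INK4 genes Cdkn2c was called higher and Cdkn2a lower in Myc_Utx lines.

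Among 18 pocket protein, E2F and DREAM/MuvB genes, which together hold or release the E2F targets, 1 was called lower and none higher (1 higher and 1 lower at an unadjusted p under 0.05, and by DESeq2 0 higher and 1 lower). A count of 1 in 18 lies below the 7.69% called lower over all genes tested. The called gene was Tfdp2, which encodes a dimer partner of E2F factors, at 68.4, 49.4 and 59.0 CPM in Myc_Utx lines and 83.0, 162 and 116 CPM in Myc_p53 lines (log2 fold change −1.03 ± 0.26 SE, adjusted p = 0.0488 by edgeR). With offsets for transcript length it was −0.66, with an adjusted p of 0.144 by edgeR, and the call was lost without any single line other than Myc_p53 line 1 (adjusted p = 0.0640 to 0.146). The median of the list was −0.03.

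All 22 E2F target genes of S phase entry had a log2 fold change above 0, where 49.2% of all genes tested did. The smallest was that of Cdc45, at 0.03 ± 0.15 SE. Scaling by total counts only shifted the median over all genes tested by −0.065, and the signs were not counted under other settings. Of the 22, 4 were called higher and none lower (10 higher and 0 lower at an unadjusted p under 0.05, 7 higher and 0 lower by DESeq2), and 11 were higher without overlap. The shares over all genes tested were 6.99% called higher and 21.1% higher without overlap. The median log2 fold change of the 22 was 0.30. Cyclins E2 and A2 belong to this list as well as to the partners. The largest was that of Rrm2, a subunit of ribonucleotide reductase, which makes the building blocks of DNA, at 392, 390.0 and 426 CPM in Myc_Utx lines and 179, 160.1 and 188 CPM in Myc_p53 lines (1.19 ± 0.11, adjusted p = 0.0103 by edgeR). Its partner subunit Rrm1 was also called higher (444 ± 13.7 against 273 ± 23.9 CPM, 0.70 ± 0.10, adjusted p = 0.0171 by edgeR). The other called genes were Mcm5 (0.62 ± 0.12, adjusted p = 0.0274 by edgeR) and Mcm6 (0.55 ± 0.14, adjusted p = 0.0452 by edgeR), subunits of the replicative helicase. These genes vary together in dividing cells, so the 22 are not independent of each other, and without single lines 0 to 5 of them were called. By edgeR the call of Rrm2 was lost without 2A (adjusted p = 0.0614), that of Rrm1 without 2A, 2B or 2D (adjusted p = 0.0671, 0.0614 and 0.0712), and those of Mcm5 and Mcm6 without any line other than Myc_p53 line 2 (adjusted p up to 0.0975 and 0.136). With all 6 lines, the call of Mcm6 was also lost with total counts only (adjusted p = 0.0514 by edgeR) and with at least 10 counts asked of every line (adjusted p = 0.05001 by edgeR).

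Of 13 mitotic cyclins and kinases, 1 was called higher and none lower (5 higher and 0 lower at an unadjusted p under 0.05, 4 higher and 0 lower by DESeq2), with a median log2 fold change of 0.22. A count of 1 in 13 is near the 6.99% called higher over all genes tested. The called gene was Plk1, a kinase of mitotic entry, at 207, 196 and 240.5 CPM in Myc_Utx lines and 119.9, 129 and 124 CPM in Myc_p53 lines (0.78 ± 0.12, adjusted p = 0.0171 by edgeR). Its call was lost by edgeR without 2A, 2B, 2D or Myc_p53 line 3 (adjusted p = 0.0639, 0.0568, 0.0665 and 0.0576). With offsets for transcript length 3 genes of this list were called higher.

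**Figure D5:**
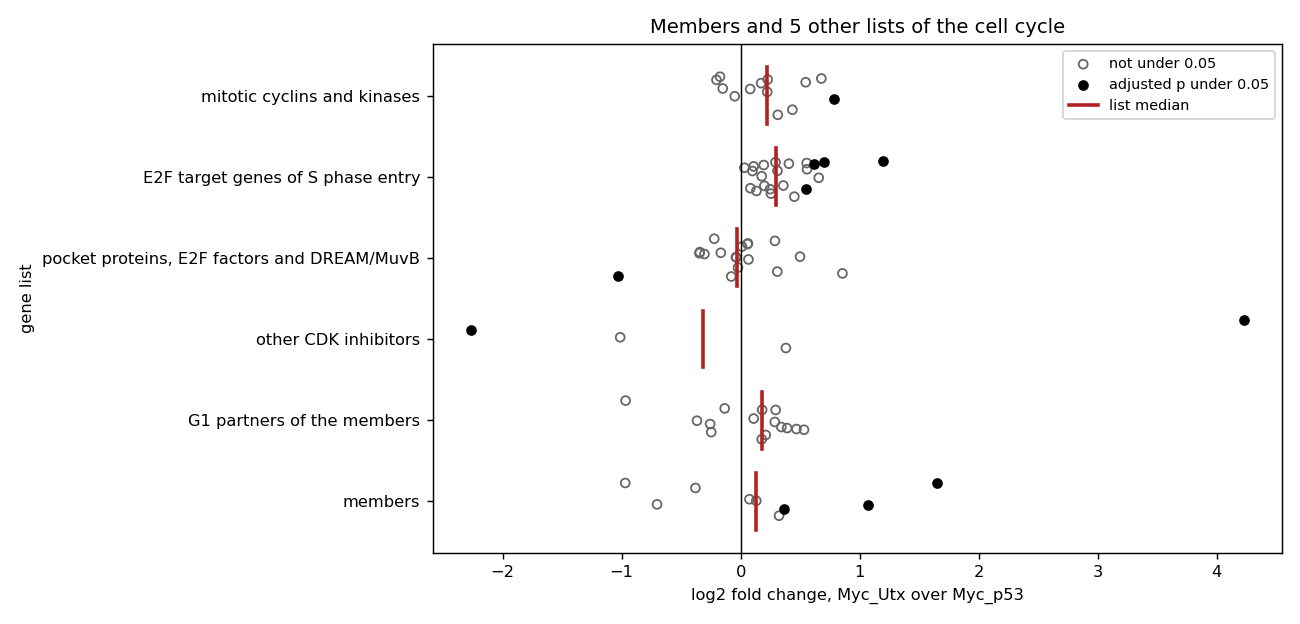
Log2 fold change, Myc_Utx over Myc_p53, of each tested gene among the members and in 5 other lists of the cell cycle, 1 point a gene, filled where called by edgeR, with the list median as a bar. All 22 E2F target genes lie above 0, none of the 15 partners is filled, and Cdkn1a (4.23) and Cdkn2a (−2.26) are the outermost points.

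Among markers of other cell types, those of macrophages held calls by edgeR. Of 10 macrophage markers, 7 were tested, 5 were called lower in Myc_Utx lines and 1, Cd14, was called higher. Over all genes tested, 7.69% were called lower and 6.99% higher. The summed level was 37.6 to 56.0 CPM in Myc_Utx lines and 60.2 to 134 CPM in Myc_p53 lines. Each of the 5 called lower was at 0.936 CPM or less in every Myc_Utx line, so the sum there came mostly from other markers. Cd68 was not called, at 2.79, 3.93 and 5.34 CPM against 10.3, 3.34 and 6.84 CPM. Among those called lower, Csf1r was at 0, 0.187 and 0 CPM in Myc_Utx lines and at 40.9, 7.23 and 34.6 CPM in Myc_p53 lines. Lyz2 was at 0, 0.936 and 0 CPM against 32.2, 19.3 and 48.1 CPM. Adgre1 and Ptprc, both untested, had no count in any Myc_Utx line but were also low in Myc_p53 lines. There Adgre1 had 5, 5 and 11 counts and Ptprc 1, 2 and 3 counts. No biliary or hepatocyte marker was called by edgeR (of 2 biliary markers tested, 1 was higher and 1 lower at an unadjusted p under 0.05, and of 3 hepatocyte markers tested, 2 were lower). DESeq2 called 2 biliary markers and 1 hepatocyte marker lower. The summed level overlapped between the groups, at 61.7 to 89.9 CPM in Myc_Utx lines and 82.1 to 443 CPM in Myc_p53 lines over 4 biliary markers and at 2.67 to 93.4 CPM and 39.3 to 1206 CPM over the hepatocyte markers. No endothelial marker passed the filter, and their summed level was at most 0.749 and 1.42 CPM. The part of these markers in the differences of Ccne1, Cdk4 and Cdkn2c was not tested.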

How the data were processed

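RNA was sequenced from 6 mouse liver tumour cell lines, and groups follow the genotype label. Per the table the authors deposited, values are unnormalized read counts for each Ensembl gene, with a length column (in bases) that sums all exons. The submitters' processing notes name Trimmomatic 0.36, STAR 2.5.3a, featureCounts 1.6.3, DESeq2 1.20.0 and the mouse builds GRCm38 and mm10, whereas the methods of the study name HTSeq and a human build and another guide RNA for the first group. The labels were followed here. Coordinates equalled those of GENCODE M21 (GRCm38) for 96.3% of the 53360 genes matched by identifier and for all 10 members. The strand setting of counting is not given in the sources used here.

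Tests used edgeR 4.0.16 (R 4.3.3), with filterByExpr at its minimum count of 10, TMM scaling, the quasi-likelihood F test on all 6 lines without covariates and Benjamini-Hochberg adjustment. Standard errors were obtained as |log2 fold change| over the root of the F statistic. For each member a two-sided exact permutation test of the CPM was run, which for 3 lines against 3 cannot give a p below 0.1. Totals of 4656103 to 6937497 counts limit precision for low genes, and 3 counts served as the floor. The whole-table biological coefficient of variation was 33.4%.

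All 10 members were described in every line. Genes of the other lists were named when past the adjusted p, up to 6 a list by size of change. The members and lists were chosen with earlier results of these data known. Alternatives were other filters, DESeq2 size factors, total counts, offsets for transcript length (a natural spline with 5 degrees of freedom), DESeq2 1.42.0, leaving out each line, and other length scales for the D cyclins. The fit was tested on simulated data. No column of the table was left unmapped.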

Additional observations from a re-analysis of the deposited data

How the results depend on the processing

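Ccne1 and Cdkn2c stayed called under every alternative that used all 6 lines, Cdk4 only with DESeq2 and with length offsets, and no tested member turned its direction except Ccnd1, which was never called. Leaving out single lines gave 0 to 2 members called higher and 0 to 1 lower (Cdk6, without Myc_p53 line 2), and 3 to 836 genes called higher and 1 to 1118 lower in the whole table, with 3 and 1 left without line 2A. With a line left out, the spread of a group of 2 is pooled with that of the other group. The log2 fold change of Ccnd1 ranged from −0.33 to 0.73 without single lines, and was −0.058 without 2A, −0.023 without 2B and −0.33 without Myc_p53 line 2. The cause was not tested. Over all genes tested, 805 were called higher and 885 lower, with total counts only 601 and 1009, with length offsets 963 and 538, and with DESeq2 1281 and 1578. The share of calls that were higher was thus 47.6%, 37.3%, 64.2% and 44.8%. Length offsets shifted the median over all tested genes by 0.13 on the log2 scale. DESeq2 called 1 member lower, Cdk6.

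The D cyclin shares moved with the length used. The mean share of Ccnd1 was 63.2% in Myc_Utx and 51.3% in Myc_p53 lines on the length in the table, 46.8% and 37.5% with principal transcripts, a scale chosen after seeing the data, and 47.0% and 35.2% without length. The mean share of Ccnd2 in Myc_Utx lines was 22.4%, and 33.3% without length. Ccnd3 went from 14.4% and 15.0% to 33.5% and 31.9% with principal transcripts. No paired analysis was possible because no replicate number occurs in both groups.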
